A study of Homo sapiens with 33 samples.

Results

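Homologous recombination and Fanconi anaemia genes were followed through CDK inhibition and CDK knockout in breast cancer cells. The 39 genes were taken from the gene-level count table by symbol, from a list drawn up by function. Earlier results of these data were known when the list was chosen. They make up 39 of the 59428 entries of the table, all 39 were found, and all 39 passed the filter on low counts in both experiments. Reads were counted at the 3′ ends of polyadenylated RNA in 33 libraries.

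Homologous recombination repairs a broken chromosome by copying the intact sister: the ends are resected, BRCA1, PALB2 and BRCA2 prepare them for strand exchange, and mediators, RAD54 proteins, nucleases and the BLM helicase carry the exchange through. The Fanconi pathway removes crosslinks between the strands: a core complex with the E2 enzyme UBE2T ubiquitinates FANCD2 and FANCI, nucleases then cut, and USP1 removes the ubiquitin. CDK12 with cyclin K, and the related CDK13, are known for keeping up the transcription of many DNA repair genes, and loss of these genes' function is known to sensitise breast cancer cells to PARP inhibitors and platinum.

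The inhibitor experiment holds 22 libraries of 2 established breast cancer lines with no engineered genotype, spelled MDA-MD-231 and, for the second, MDA-MD-468 in the labels. Each line has a DMSO and a parental library at 0 h, which served together as control, and libraries after 3, 6 and 12 h of SY200, of V50 and of SY200/V50. The series treats these as inhibitors of CDK7, of CDK9 and of both, and the labels do not say which name is which inhibitor or give doses. The knockout experiment holds 11 libraries of MDA-MD-231: a parental library at 0 h, and at both 72 and 96 h an empty vector and knockouts (KO) of CDK1, of CDK7, of CDK9 and of CDK7 with CDK9 (CDK7/9 KO), without mention of clones or pools. Each line, condition and time has 1 library, so p-values rest on 2 lines or 2 knockout times, and separate cultures are not stated. All inhibitor controls are at 0 h, so an effect of treatment and an effect of time in culture cannot be told apart.

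Library totals ran from 16985219 to 22859779 counted reads, and the 39 genes took 0.0961 to 0.194% of them, least in the 2 SY200/V50 12 h libraries. Within the inhibitor experiment the same 2 libraries had the lowest scaling factors of their lines and the highest share of mitochondrial mRNA, 5.05% for MDA-MD-231 and 13.5% for the other line, against 2.51 and 3.93% with DMSO. Changes below are on the TMM scale, which holds the bulk of genes near no change but not exactly at it. The median log2 change of all genes was 0.09 for SY200/V50 against control and 0.235 for SY200/V50 against V50 at 12 h. When libraries were scaled to the 13 mitochondrially encoded mRNAs instead, the median of all genes moved with SY200/V50 from 0.09 to -1.33 on the log2 scale, and each rise with SY200/V50 or V50 against control given below turned into a fall. Fewer cells and less RNA per cell cannot be told apart in such bulk libraries. Libraries carried the markers of their labelled line, a median of 242 to 637 CPM (read counts relative to the scaled library size) for 14 MDA-MB-231 markers in the inhibitor libraries of MDA-MD-231 against 16.4 to 37.2 CPM in MDA-MD-468. Immune cell markers summed to 3.76 to 69.3 CPM and were highest in the 12 h SY200/V50 library of MDA-MD-231. Of 10 such markers 5 were tested in the inhibitor experiment, and 3 were higher and none lower at 12 h of SY200/V50 (median 1.54, on the log2 scale). Single markers reached 59.5 CPM (HLA-DRA) and 20 CPM (CD14), the leukocyte marker PTPRC reached 1.86 CPM, and MS4A1 was at 0 in all 33 libraries. The medians of the MDA-MB-468 markers were 6.73 and 7.49 CPM in the CDK1 KO libraries against 0.948 to 3.56 CPM in the other libraries of that experiment, and 2 of 13 tested were higher with CDK1 KO. Fibroblast and endothelial markers summed to 11.7 to 44.9 CPM, and the part of these lists in the results was not tested. No member differed between DMSO and parental libraries in edgeR's test (0.037% of all genes did, and 0 members had an unadjusted p under 0.05). The median difference of the 39 was -0.15 on the log2 scale against -0.01 for all genes, and 7 members were above 0. With DMSO alone as control, the median change of the 39 moved from -0.07 to 0.00545 with V50. With SY200/V50 it moved from -0.19 to -0.16.

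SY200/V50 lowered many of the 39 genes and raised a few, V50 changed fewer, and SY200 changed 1 on average over times and 3 at 12 h. Averaged over 3, 6 and 12 h, 15 of the 39 were lower with SY200/V50 than in control (24.2% of all genes tested were lower) and 6 were higher (24.0% of all genes were higher). With V50, 7 were lower (11.9% of all genes) and 2 higher (10.4%). With SY200 only NBN passed, out of a background of 1.98%. Passing means a Benjamini-Hochberg adjusted p under 0.05 in edgeR's quasi-likelihood test over all genes, 18911 in this experiment. The median change of the 39 with SY200/V50 was -0.19 on the log2 scale against 0.09 for all genes. Thus with SY200/V50 the share that fell, 15 of 39, stood above that of all genes, and the share that rose stood below it. In either direction, 48.2, 22.3 and 1.98% of all genes passed with SY200/V50, V50 and SY200, the same order as for the members. The 9 members with V50 and the 1 with SY200 were near those shares. No test compares the list with other genes. With the line left out of the model, 9 members passed with SY200/V50 (2364 of all 18911 genes) and none with V50 (103 of all genes, or 0.545%). The count of 9 with V50 dropped to 5 without the parental or the V50 3 h library of MDA-MD-468.

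More members passed at each later time of SY200/V50, while with V50 most passed at 6 h. The shares of all genes that passed followed the same order over time with both treatments. Members that passed in either direction numbered 3 at 3 h of SY200/V50 (7.54% of all genes), 16 at 6 h (34.7%) and 21 at 12 h. At 12 h these were 17 lower (23.7% of all genes lower) and 4 higher (25.9% higher). With V50, 2 passed at 3 h (4.1%), 11 at 6 h (23.4%) and 4 at 12 h (15.2%). Between 3 and 12 h of SY200/V50, 9 members became lower (8.73% of all genes lower) and FANCI became higher (9.57% of all genes higher), by 0.49, or -0.68 under mitochondrial scaling. Between 3 and 12 h of V50, 3 members differed (12.8%): BARD1 was higher at 12 h, and RAD51AP1 and NBN were lower. With SY200, none passed at 3 or 6 h (with 6 members at an unadjusted p under 0.05 at each), and at 12 h RAD51AP1 (-1.09 ± 0.20) and NBN (-0.71 ± 0.16) were lower and RBBP8 (0.70 ± 0.17) higher, among 2.43% of all genes. These 3 calls were lost without the SY200 12 h library of either line or with DMSO alone as control. Those of NBN and RBBP8 were also lost without the MDA-MD-468 parental library. The RBBP8 call was lost without any 1 of 14 of the 22 libraries, without the filter on low counts and under mitochondrial scaling (0.33). Between 3 and 12 h of SY200, RAD51AP1 and ATM were lower and FANCM higher (1.95% of all genes differed), and none passed without 1 of the 4 SY200 libraries at 3 or 12 h, without the filter on low counts or under mitochondrial scaling. The 3 became 1, RAD51AP1, with DMSO alone as control, without SY200/V50 3 h, SY200/V50 6 h or V50 3 h of either line, without the MDA-MD-231 parental library or without the MDA-MD-468 DMSO library. Several of the counts with V50 and SY200/V50 turned on 1 library. The 11 at 6 h of V50 became 1 without the V50 6 h library of MDA-MD-231, 5 without that of MDA-MD-468 and 6 without the MDA-MD-468 DMSO library. The 4 at 12 h of V50 became 1 without the V50 12 h library of MDA-MD-231 and 7 without either SY200/V50 12 h library. The 16 at 6 h of SY200/V50 became 8 or 9 without the library of either line at that time. The 10 between 3 and 12 h of SY200/V50 became 4 without the MDA-MD-231 12 h library, and 3 or 6 without the MDA-MD-231 or MDA-MD-468 3 h library. The 3 between 3 and 12 h of V50 became 0 or 1 without the 3 h library of MDA-MD-231 or MDA-MD-468, 1 or 5 without the 12 h library of either, 5 without the MDA-MD-231 DMSO library and 12 without either SY200/V50 12 h library.

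**Figure D1:**
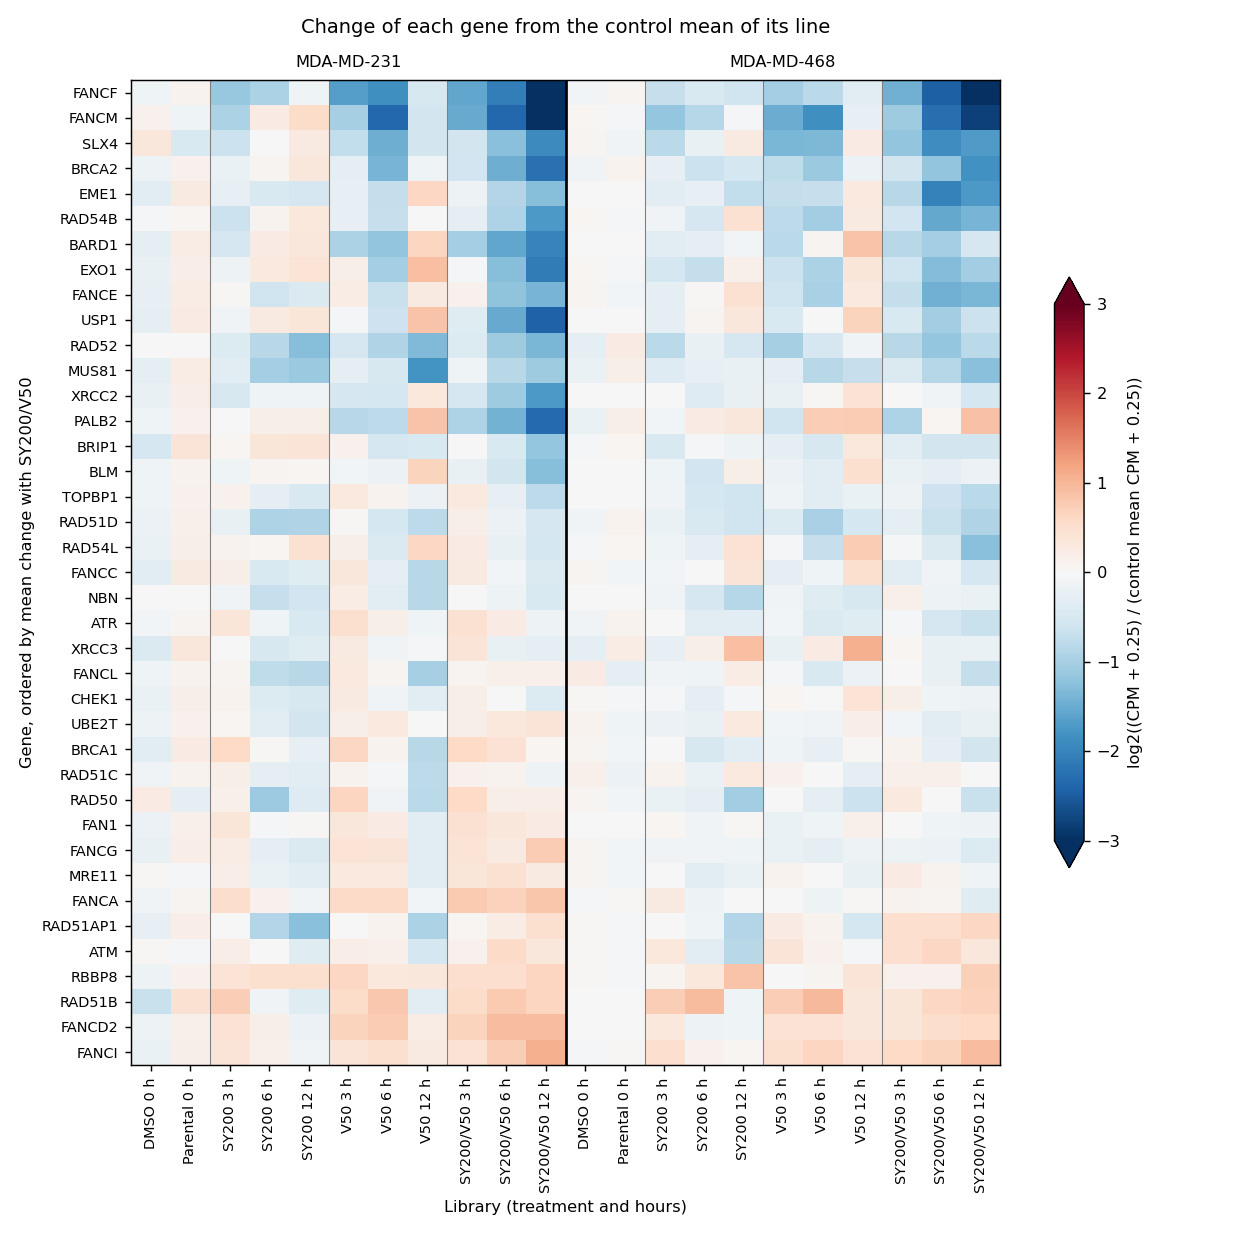
Change of each of the 39 genes (rows, ordered by the mean log2 fold change with SY200/V50) in each of the 22 inhibitor libraries (columns) from the mean of the DMSO and parental libraries of the same line, as a log2 ratio of CPM with 0.25 added. Blue is lower and red higher, and colours saturate at 3 in either direction. FANCF and FANCM are deepest blue at 12 h of SY200/V50 in both lines, while FANCI and FANCD2 are red there. These reds turn to falls when libraries are scaled to mitochondrial mRNAs.

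Of the tumour suppressor core, BRCA2 and BARD1 fell with SY200/V50 and BRCA1 did not pass in any comparison. BRCA1 is the ubiquitin ligase partner of BARD1, and BRCA2 acts on resected DNA. BRCA2 in MDA-MD-231 stood at 28.1 CPM with DMSO and 34.3 CPM in the parental library, at 27.1, 33.2 and 39.9 CPM after 3, 6 and 12 h of SY200, at 25.8, 11.7 and 28.6 CPM with V50 and at 21, 11.1 and 6.46 CPM with SY200/V50. For BRCA2 in MDA-MD-468 the controls were 28.7 and 33 CPM, and the same times gave 25.8, 19.8 and 21.4 CPM with SY200, 18, 14.1 and 27.3 CPM with V50 and 21.1, 13.3 and 8.52 CPM with SY200/V50. The SY200/V50 libraries at 6 and 12 h lay below both controls in each line, and the V50 libraries were low at 6 h and close to control at 12 h. BRCA2 fell with SY200/V50 (log2 change ± standard error, as throughout, -1.31 ± 0.18, adjusted p = 2.45e-05), or 2.48-fold, and at 12 h alone (log2 change -2.04 ± 0.28, adjusted p = 2.06e-05). With V50 it fell (log2 change -0.64 ± 0.18, adjusted p = 0.0193), which no longer passed against DMSO libraries only, without V50 6 h of MDA-MD-231, or without the parental or V50 3 h library of MDA-MD-468. BRCA1 in MDA-MD-231 stood at 26.9 CPM with DMSO and 39.9 CPM in the parental library, at 50.5, 34.4 and 28.2 CPM after 3, 6 and 12 h of SY200, at 51.6, 35.9 and 18.8 CPM with V50 and at 50.5, 45 and 34.9 CPM with SY200/V50. For BRCA1 in MDA-MD-468 the controls were 47.5 and 42.6 CPM, and the same times gave 44.3, 32.1 and 35.3 CPM with SY200, 41.3, 38.2 and 46.5 CPM with V50 and 48.1, 37.2 and 30.7 CPM with SY200/V50. These values overlap between control and treatment in both lines, and the mean change with SY200/V50 was 0.06 ± 0.20 (adjusted p = 0.834), which the mitochondrial scaling moved to -1.39.

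BARD1 in MDA-MD-231 stood at 22.5 CPM with DMSO and 31.8 CPM in the parental library, at 19, 32.2 and 34.6 CPM after 3, 6 and 12 h of SY200, at 13.9, 11.7 and 42.8 CPM with V50 and at 13.2, 9.05 and 6.62 CPM with SY200/V50. For BARD1 in MDA-MD-468 the controls were 33.3 and 33.2 CPM, and the same times gave 26.1, 27.2 and 31.4 CPM with SY200, 18.7, 35.5 and 60.2 CPM with V50 and 18.7, 16.4 and 23.5 CPM with SY200/V50. BARD1 was lower at each time of SY200/V50 than in both controls of its line, and at 12 h of V50 it was higher than both. The mean change with SY200/V50 was -1.12 ± 0.25 (adjusted p = 0.00126). PALB2, which bridges BRCA1 and BRCA2, stood at 16 and 19.1 CPM in the MDA-MD-231 controls and at 3.31 CPM after 12 h of SY200/V50, but at 14.9, 19.5 and 32.0 CPM in the corresponding MDA-MD-468 libraries. Its mean change was -0.58 ± 0.37 (adjusted p = 0.206), and the difference of its effect between lines, 1.54 ± 0.68, did not pass either (adjusted p = 0.285). BRIP1, the helicase bound to BRCA1, changed by -0.51 ± 0.21 (adjusted p = 0.0506).

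Among the recombination mediators, RAD54B, RAD52, XRCC2 and RAD54L fell with SY200/V50, and RAD51B and RAD51AP1 were higher. RAD54B, a DNA translocase, fell (log2 change -1.14 ± 0.21, adjusted p = 0.000303), and RAD52, an annealing protein, fell (log2 change -0.98 ± 0.25, adjusted p = 0.00416). XRCC2, a mediator of strand exchange, fell (log2 change -0.65 ± 0.20, adjusted p = 0.0124), a call that was lost without the SY200/V50 12 h library of MDA-MD-231. RAD54L, the closest relative of RAD54B, changed least among them, by -0.38 ± 0.13 (adjusted p = 0.0282). The calls of RAD54L, RAD51B and RAD51AP1 were each lost without any 1 of 6 to 8 libraries. For RAD54L these were both parental and both SY200/V50 6 h libraries, and DMSO and SY200/V50 3 h of MDA-MD-468. For RAD51B and RAD51AP1 they included both DMSO and both SY200/V50 12 h libraries, the parental library of MDA-MD-468 and other SY200/V50 libraries at 3 or 6 h.

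RAD51AP1 in MDA-MD-231 stood at 34.3 CPM with DMSO and 46.5 CPM in the parental library, at 40.1, 21.8 and 16.7 CPM after 3, 6 and 12 h of SY200, at 41, 43.6 and 20.7 CPM with V50 and at 42.3, 47.5 and 56.1 CPM with SY200/V50. For RAD51AP1 in MDA-MD-468 the controls were 17.9 and 17.1 CPM, and the same times gave 17.5, 16.1 and 9.46 CPM with SY200, 20.9, 18.8 and 12.2 CPM with V50 and 24.9, 25.1 and 27.2 CPM with SY200/V50. RAD51AP1, which stimulates strand invasion, was low at 12 h of either single agent in both lines and above both controls at 12 h of the combination. SY200/V50 left it higher than the single effects add up to, by 1.10 ± 0.19 (adjusted p = 0.00799). NBN was likewise higher than that sum, by 0.64 ± 0.15 (adjusted p = 0.0247), and for USP1 the difference was -1.19 ± 0.31 (adjusted p = 0.0379). These were the 3 members that departed from additivity (5.04% of all genes). The RAD51AP1 call held without each library in turn, and the other 2 were lost without any of 7 and 16 libraries. Without 1 library the 3 became 1 (SY200 3 h of either line, SY200 6 h or SY200/V50 6 h of MDA-MD-231, or SY200/V50 3 h, V50 3 h or V50 6 h of MDA-MD-468), 5 (SY200 6 h of MDA-MD-468) or 9 (SY200/V50 12 h of MDA-MD-468).

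The end resection genes moved in both directions. EXO1, the exonuclease of long-range resection, fell, while RBBP8, which encodes CtIP and starts resection, rose. EXO1 in MDA-MD-231 stood at 58.6 CPM with DMSO and 78.6 CPM in the parental library, at 61.2, 83.6 and 91.8 CPM after 3, 6 and 12 h of SY200, at 77, 33.4 and 129 CPM with V50 and at 65.8, 27.9 and 15.8 CPM with SY200/V50. For EXO1 in MDA-MD-468 the controls were 50.5 and 46.2 CPM, and the same times gave 33.7, 29.4 and 54 CPM with SY200, 30.7, 24.9 and 62 CPM with V50 and 32.1, 19.5 and 23.5 CPM with SY200/V50. With SY200/V50, EXO1 was below both controls of its line at 6 and 12 h, and with V50 it was low at 6 h and above both controls at 12 h. The mean change with SY200/V50 was -1.02 ± 0.21 (adjusted p = 0.000863). RBBP8 in MDA-MD-231 stood at 79.8 CPM with DMSO and 96.7 CPM in the parental library, at 117, 124 and 124 CPM after 3, 6 and 12 h of SY200, at 136, 110 and 111 CPM with V50 and at 124, 125 and 139 CPM with SY200/V50. For RBBP8 in MDA-MD-468 the controls were 61.8 and 59.6 CPM, and the same times gave 64.6, 75.8 and 111 CPM with SY200, 60.8, 64.2 and 80.1 CPM with V50 and 66.5, 66.5 and 100 CPM with SY200/V50. RBBP8 lay above both controls in each of the 6 SY200/V50 libraries, as well as in each SY200 library. Its mean rise with SY200/V50 was 0.44 ± 0.13 (adjusted p = 0.0112), lost when DMSO of MDA-MD-231 was left out and -0.995 under mitochondrial scaling. MRE11, NBN and RAD50 form the complex that senses ends, and none of them passed with SY200/V50 (0.22, -0.14 and 0.09). NBN fell with SY200 (log2 change -0.47 ± 0.11, adjusted p = 0.0403), a call lost without any 1 of 13 of the 22 libraries. DESeq2 called 5 members with SY200 (5.21% of all genes).

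ATM, the kinase that answers double-strand breaks, rose with SY200/V50, and TOPBP1, the activator of ATR, fell. ATM in MDA-MD-231 stood at 69.7 CPM with DMSO and 66.3 CPM in the parental library, at 78.4, 67.3 and 52.9 CPM after 3, 6 and 12 h of SY200, at 77.9, 75.3 and 47.5 CPM with V50 and at 73.8, 101 and 85.6 CPM with SY200/V50. For ATM in MDA-MD-468 the controls were 30.9 and 28.9 CPM, and the same times gave 37.5, 24.1 and 16.8 CPM with SY200, 39.4, 32.6 and 29 CPM with V50 and 42.3, 45.8 and 38.2 CPM with SY200/V50. All 6 SY200/V50 libraries lay above both controls of their line. ATM rose (log2 change 0.42 ± 0.13, adjusted p = 0.0164), a call lost without either SY200/V50 12 h library, or without the parental or SY200/V50 3 h library of MDA-MD-468, and -1.01 under mitochondrial scaling. TOPBP1 fell (log2 change -0.39 ± 0.11, adjusted p = 0.00828). ATR and its effector kinase CHEK1 changed by -0.11 ± 0.14 and -0.06 ± 0.14 and did not pass (adjusted p = 0.539 and 0.76).

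The Fanconi core complex held the 2 deepest falls of the 39, FANCF and FANCM, and FANCE fell as well. FANCM is the translocase that brings the core complex to stalled forks, and FANCF is the adaptor that holds the complex together. FANCM in MDA-MD-231 stood at 29 CPM with DMSO and 24.1 CPM in the parental library, at 13.6, 31.6 and 39 CPM after 3, 6 and 12 h of SY200, at 13.3, 4.99 and 18 CPM with V50 and at 9.12, 4.97 and 2.92 CPM with SY200/V50. For FANCM in MDA-MD-468 the controls were 11.2 and 10.1 CPM, and the same times gave 4.61, 5.76 and 10.3 CPM with SY200, 3.65, 2.79 and 8.88 CPM with V50 and 4.93, 2.04 and 1.31 CPM with SY200/V50. FANCM was below both controls of its line in every V50 and SY200/V50 library, and lowest at 12 h of SY200/V50, where it rested on 38 and 20 reads. With SY200/V50 it fell (log2 change -2.28 ± 0.22, adjusted p = 7.24e-07), or 4.84-fold, and with V50 (log2 change -1.27 ± 0.21, adjusted p = 0.00077).

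FANCF in MDA-MD-231 stood at 3.39 CPM with DMSO and 4.01 CPM in the parental library, at 1.55, 1.79 and 3.38 CPM after 3, 6 and 12 h of SY200, at 1.02, 0.850 and 2.58 CPM with V50 and at 1.10, 0.692 and 0.231 CPM with SY200/V50. For FANCF in MDA-MD-468 the controls were 9.49 and 10.7 CPM, and the same times gave 6.20, 7.34 and 6.65 CPM with SY200, 4.83, 5.69 and 8.09 CPM with V50 and 3.55, 1.66 and 0.983 CPM with SY200/V50. The values of FANCF, whose mean level of 3.90 CPM lies under the minimum of 5 CPM for genes given by library, were chosen after they had been seen. At 12 h of SY200/V50 it rested on 3 reads for MDA-MD-231 and 15 for MDA-MD-468, and all 6 SY200/V50 libraries lay below both controls. Its mean change was -2.59 ± 0.24 (adjusted p = 5.54e-07), and with V50 -1.05 ± 0.22 (adjusted p = 0.00313). FANCE fell with SY200/V50 (log2 change -0.996 ± 0.21, adjusted p = 0.0011). FANCA, FANCC, FANCG, FANCL and UBE2T changed by between -0.19 and 0.37 and did not pass.

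FANCI and FANCD2, the pair ubiquitinated by the core complex, rose together, and USP1, which deubiquitinates them, fell. FANCI in MDA-MD-231 stood at 74.7 CPM with DMSO and 97.7 CPM in the parental library, at 114, 95.5 and 80.4 CPM after 3, 6 and 12 h of SY200, at 113, 120 and 105 CPM with V50 and at 116, 145 and 180 CPM with SY200/V50. For FANCI in MDA-MD-468 the controls were 72.6 and 76.1 CPM, and the same times gave 106, 80.8 and 77.8 CPM with SY200, 104, 115 and 100 CPM with V50 and 112, 118 and 142 CPM with SY200/V50. Each of the 6 V50 and 6 SY200/V50 libraries was above both controls of its line. FANCI rose with SY200/V50 (log2 change 0.74 ± 0.10, adjusted p = 2.19e-05) and with V50 (log2 change 0.45 ± 0.10, adjusted p = 0.0052), which became -0.69 and -0.46 under mitochondrial scaling. FANCD2 in MDA-MD-231 stood at 41.6 CPM with DMSO and 51.3 CPM in the parental library, at 63.2, 52.6 and 41.1 CPM after 3, 6 and 12 h of SY200, at 73.6, 78.3 and 54.3 CPM with V50 and at 73.9, 89.2 and 87.8 CPM with SY200/V50. For FANCD2 in MDA-MD-468 the controls were 31.6 and 30.9 CPM, and the same times gave 39.1, 28.1 and 28.4 CPM with SY200, 42.1, 42.2 and 39.8 CPM with V50 and 40.5, 45 and 47.1 CPM with SY200/V50. FANCD2 also lay above both controls in all V50 and SY200/V50 libraries. It rose with SY200/V50 (log2 change 0.67 ± 0.12, adjusted p = 0.000252) and with V50 (log2 change 0.48 ± 0.12, adjusted p = 0.0102), which became -0.77 and -0.44 under mitochondrial scaling. USP1 went from 152 and 220 CPM in the MDA-MD-231 controls to 34.1 CPM at 12 h of SY200/V50, and from 194 CPM in both MDA-MD-468 controls to 125 CPM. Its mean change was -0.996 ± 0.23 (adjusted p = 0.00179), whereas at 12 h of V50 it stood at 336 and 307 CPM, above the controls.

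The promoters of 3 members are shown. FANCM fell deepest among the members averaging 5 CPM or more, FANCD2 rose, and XRCC2, which fell, shares a sequence match with FANCD2. Windows of 250 bases before to 50 after the start come from RefSeq on GRCh38.p14, where 36 of the 39 genes had an entry, in 50 windows. Capitals mark matches on either strand to the E2F site TTTCCCGC, to CCAAT (the NF-Y box) or to CCGGAAGT (an ETS site). FANCM lies at chr14:45135680-45135979 (plus strand), FANCD2 at chr3:10026187-10026486 (plus strand) and XRCC2 at chr7:152676092-152676391 (minus strand).
FANCM: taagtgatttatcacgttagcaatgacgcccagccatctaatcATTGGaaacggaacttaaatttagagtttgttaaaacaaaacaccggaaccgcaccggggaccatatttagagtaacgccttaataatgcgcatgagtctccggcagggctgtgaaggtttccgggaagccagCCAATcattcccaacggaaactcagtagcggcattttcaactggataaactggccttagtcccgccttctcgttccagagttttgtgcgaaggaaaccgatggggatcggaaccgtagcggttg
FANCD2: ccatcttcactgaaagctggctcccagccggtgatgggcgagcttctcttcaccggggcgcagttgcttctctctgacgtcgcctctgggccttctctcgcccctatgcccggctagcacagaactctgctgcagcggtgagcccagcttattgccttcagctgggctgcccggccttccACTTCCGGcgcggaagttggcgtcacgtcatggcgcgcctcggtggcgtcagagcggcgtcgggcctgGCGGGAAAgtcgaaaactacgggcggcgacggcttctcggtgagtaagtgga
XRCC2: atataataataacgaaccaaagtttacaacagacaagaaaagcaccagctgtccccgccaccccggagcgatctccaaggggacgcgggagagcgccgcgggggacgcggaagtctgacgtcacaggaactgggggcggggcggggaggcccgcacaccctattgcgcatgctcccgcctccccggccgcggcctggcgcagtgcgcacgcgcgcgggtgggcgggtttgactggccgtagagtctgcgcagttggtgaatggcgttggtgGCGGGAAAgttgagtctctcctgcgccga
Both FANCD2 and XRCC2 carry the E2F letters in reverse, at -2 and 21 from the start, and their transcripts moved in opposite directions with SY200/V50 on the TMM scale. Under mitochondrial scaling both were lower (-0.77 and -2.07). The third carrier of these letters, FANCC, changed by -0.19 without passing. The FANCM window holds 2 CCAAT matches and none of the E2F letters. TTTCCCGC was in 3 of the 50 windows (6.0%) against 1.63% of the 35116 RefSeq promoters, and TTTGGCGC and TTTGGCGG were in none, against 0.65% each. CCGGAAGT was in 12.0% against 4.14%, CCAAT in 40.0% against 34.61%, and TTTGAA, the core of the cell cycle element CHR, in 10.0% against 15.16%. Matches describe letters and not binding, and their part in the changes was not tested.

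The nuclease genes SLX4, EME1 and MUS81 fell. SLX4 is the scaffold on which the nucleases MUS81-EME1 and others assemble. SLX4 in MDA-MD-231 stood at 32 CPM with DMSO and 18.4 CPM in the parental library, at 16.1, 25 and 30.6 CPM after 3, 6 and 12 h of SY200, at 15.1, 9.01 and 17.2 CPM with V50 and at 17, 10.4 and 6.54 CPM with SY200/V50. For SLX4 in MDA-MD-468 the controls were 22 and 19.2 CPM, and the same times gave 11.7, 17.5 and 24.9 CPM with SY200, 7.87, 8.0 and 24.6 CPM with V50 and 8.93, 5.52 and 6.16 CPM with SY200/V50. The 6 SY200/V50 libraries lay below both controls of their line, and the 2 MDA-MD-231 controls themselves differed, 32.0 against 18.4 CPM. SLX4 fell with SY200/V50 (log2 change -1.42 ± 0.21, adjusted p = 3.51e-05) and with V50 (log2 change -0.85 ± 0.20, adjusted p = 0.0081). EME1 in MDA-MD-231 stood at 10.3 CPM with DMSO and 15.8 CPM in the parental library, at 11.1, 9.45 and 9.19 CPM after 3, 6 and 12 h of SY200, at 10.9, 7.82 and 20.2 CPM with V50 and at 11.8, 7.04 and 5.23 CPM with SY200/V50. For EME1 in MDA-MD-468 the controls were 3.39 and 3.38 CPM, and the same times gave 2.65, 2.84 and 1.92 CPM with SY200, 1.95, 1.99 and 4.23 CPM with V50 and 1.78, 0.643 and 0.852 CPM with SY200/V50. EME1 was below both controls from 6 h of SY200/V50 in MDA-MD-231 and from 3 h in MDA-MD-468, where 13 reads remained at 12 h. It fell (log2 change -1.17 ± 0.22, adjusted p = 0.000337), and its partner MUS81 (log2 change -0.77 ± 0.21, adjusted p = 0.00725). BLM changed by -0.43 ± 0.19 (adjusted p = 0.0664) and FAN1 by 0.13 ± 0.16 (adjusted p = 0.505). Apart from the losses named for single genes, the SY200/V50 calls held without each library in turn. With DMSO alone as control the calls of XRCC2, RAD54L, ATM, TOPBP1 and MUS81 were lost, and without the filter on low counts those of RAD51B, RAD51AP1 and ATM. Without both SY200/V50 12 h libraries XRCC2, RAD54L, RAD51B, RAD51AP1, RBBP8 and TOPBP1 lost theirs. The V50 calls not yet described were MUS81 (-0.70 ± 0.21), RAD52 (-0.71 ± 0.25) and RAD51D (-0.53 ± 0.18), each lost without any 1 of 5 to 9 libraries and with DMSO alone as control.

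**Figure D2:**
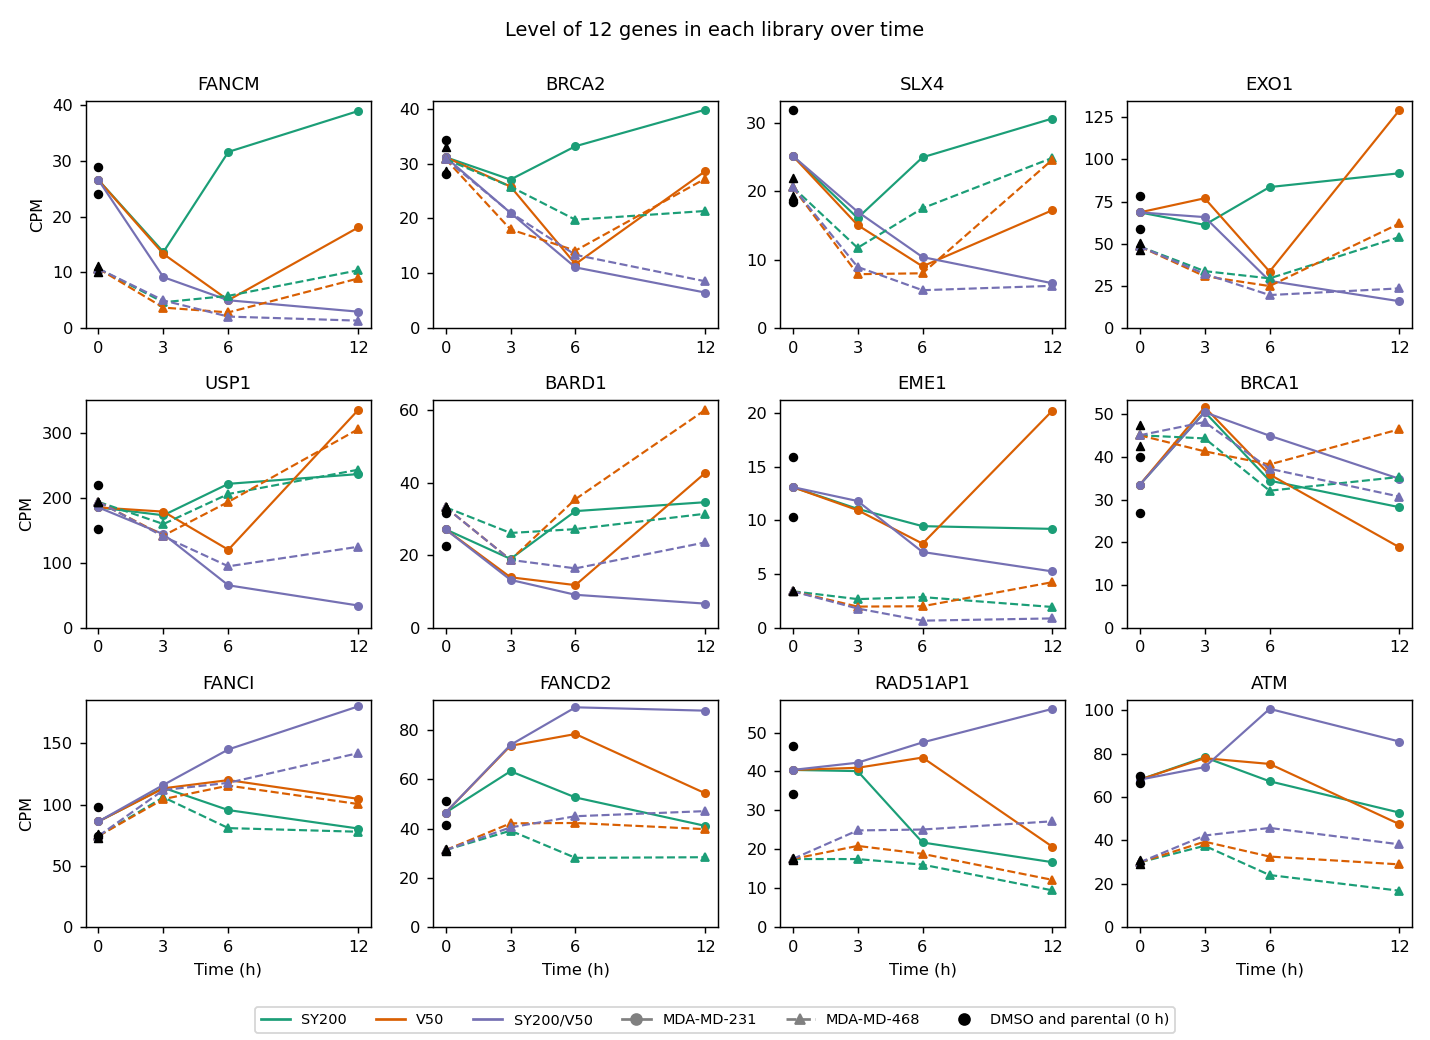
CPM (vertical axis, linear from 0) against hours of treatment (horizontal axis) for 12 of the 39 genes, 1 library per point, MDA-MD-231 as solid lines with circles and MDA-MD-468 as dashed lines with triangles. Black points are the DMSO and parental libraries at 0 h, and lines start at their mean. For BRCA2, FANCM and EXO1 the V50 lines dip at 6 h and turn up by 12 h, while the SY200/V50 lines stay low.

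V50 and SY200/V50 differed at 12 h. At 3 and at 6 h no member differed between them at the threshold in edgeR's quasi-likelihood test (0.00529 and 0.0106% of all genes did), with 0 and 4 members at an unadjusted p under 0.05, and DESeq2 was not run there. At 12 h, 14 members were lower with SY200/V50 than with V50 (18.2% of all genes lower) and 3 higher (19.3% of all genes higher). This comparison shares no control libraries and matches the time. The 14 included FANCF (-3.16 ± 0.43), FANCM (-2.71 ± 0.37), EXO1 (-2.09 ± 0.35), USP1 (-2.08 ± 0.38), EME1 (-2.08 ± 0.36), BRCA2 (-1.89 ± 0.30), BARD1 (-1.87 ± 0.40) and RAD54B (-1.85 ± 0.35). BLM, which did not pass against control, differed here, at -1.22 ± 0.30 (adjusted p = 0.00431). The 3 higher were RAD51AP1 (1.30 ± 0.23), FANCI (0.64 ± 0.16) and ATM (0.61 ± 0.21), of which FANCI and ATM turned negative under mitochondrial scaling (-0.39 and -0.43) and RAD51AP1 stayed positive at 0.26 without passing. Without the SY200/V50 12 h library of MDA-MD-231 the 17 members became 11, and the calls of BARD1, XRCC2, BLM, FANCI, TOPBP1 and ATM were lost.

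Over all times, SY200/V50 against V50 gave 14 lower (12.4% of all genes) and 3 higher (7.52%). These 17 became 9 without SY200/V50 12 h or V50 3 h of MDA-MD-231, or SY200/V50 3 h or V50 6 h of MDA-MD-468, and 11 without the SY200/V50 6 h library of either line. Against SY200, SY200/V50 gave 12 lower (22.2%) and 7 higher (23.8%), with FANCM at -1.94 ± 0.20 (adjusted p = 2.43e-06). Under mitochondrial scaling all 7 of these higher members changed sign, and 5 of them passed as lower, all but RAD51AP1 and RAD50.

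**Figure D3:**
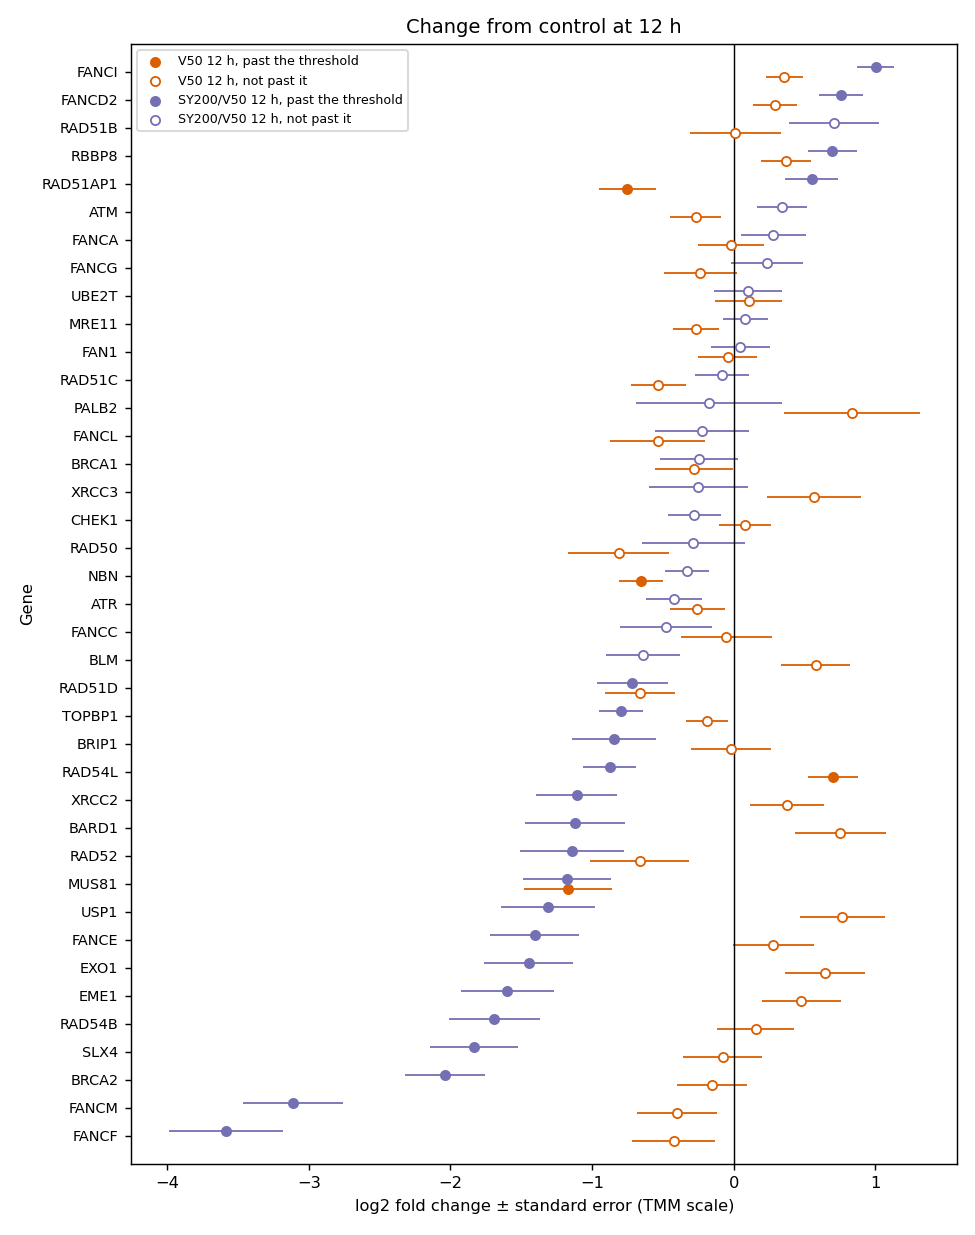
Change from control at 12 h of V50 (orange) and of SY200/V50 (purple) for the 39 genes, as log2 fold change (horizontal axis) with its standard error, ordered by SY200/V50. Filled points passed the adjusted p threshold. The V50 points of BARD1, EXO1, USP1 and EME1 lie to the right of 0 and their SY200/V50 points to the left, and points right of 0 for SY200/V50 that passed turn negative under mitochondrial scaling.

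The lines differed in starting level for 53.8% of all genes, and 18 members were among them. Such differences were thus not particular to these genes. In the controls 13 members were lower in MDA-MD-468 than in MDA-MD-231 (25.0% of all genes lower) and 5 higher (28.8% higher). The widest gaps were XRCC3 (-2.76 ± 0.41), EME1 (-1.95 ± 0.29), RAD50 (1.75 ± 0.41), BRIP1 (-1.57 ± 0.31), FANCF (1.45 ± 0.32) and FANCM (-1.32 ± 0.28). No member's response differed between lines at the threshold for SY200, V50 or SY200/V50 (0.0%, 0.0% and 0.0% of all genes) in edgeR's quasi-likelihood test. Unadjusted p was under 0.05 for 0, 0 and 6 members, and DESeq2 called 0 in each (0.175, 0.635 and 2.23% of all genes). The 6 were PALB2 and XRCC2, with the higher change in MDA-MD-468, and ATR, FANCA, FANCG and EME1, with the lower. With 8 residual degrees of freedom, equal responses are not shown.

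Gene length ran from 3.0 to 910.4 kb of annotated span (GENCODE release 29). FANCF, which fell deepest, is the shortest, a single-exon gene of 3.0 kb at chr11:22622890-22625841, and RAD51B, the longest, was higher. The next shortest, FANCG (6.2 kb), and the next longest, FANCC (327.7 kb), did not pass with SY200/V50. Over the 39 genes the Spearman correlation of span with the SY200/V50 change was 0.296, and it was -0.06 over 13703 protein-coding genes. With V50 it was 0.186 over the 39, and with CDK9 KO and CDK7/9 KO it was -0.176 and -0.114. The points share libraries, genes are not independent replicates, and this is a description. The last exons of 13 members overlap another gene, and the strand setting of the counting is not given, so their reads may include the neighbour's. Among the neighbours, POLG at FANCI, which rose, moved by -0.49. EFEMP2 at MUS81, which fell, moved by 1.69 (0.908 against 26.1 CPM), and LRRC59 at EME1 by 0.22 (378 against 6.57 CPM). FSBP lies on the same strand as RAD54B, so a strand setting would not separate them. It moved by 0.39 (2.47 CPM), against -1.14 for RAD54B (4.02 CPM). ZNF276 at FANCA moved by -1.005 against 0.37, and MTMR10 at FAN1 by -0.58 against 0.13. LRRC41 at RAD54L moved by 0.01, VRK2 at FANCL by 0.03 and GAS2 at FANCF by -0.22.

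**Figure D4:**
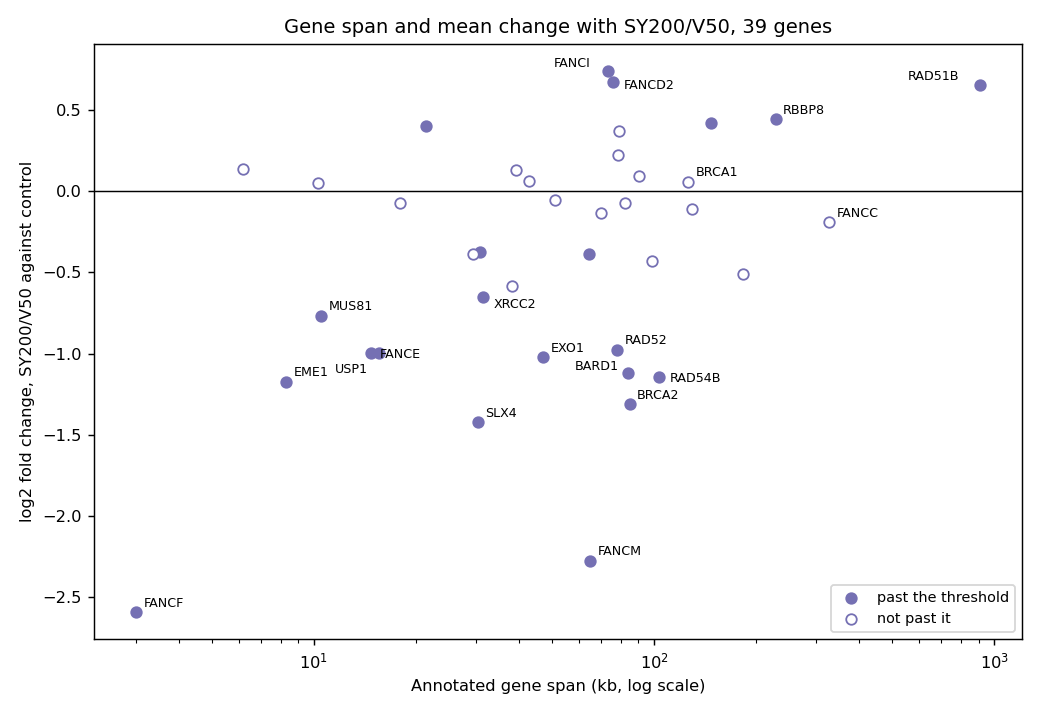
Annotated gene span in kb (horizontal axis, log scale) against the log2 fold change with SY200/V50 averaged over times (vertical axis) for the 39 genes. Filled points passed the threshold. FANCF at 3.0 kb lies lowest and RAD51B at 910.4 kb lies above 0 on the TMM scale, where mitochondrial scaling puts it at -0.77.

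The transcripts of CDK12 and CDK13 fell with SY200/V50 as well. CDK12 was at 15.4 and 18.6 CPM at 12 h of SY200/V50 in MDA-MD-231 and MDA-MD-468, against 162 and 105 CPM with DMSO and 105 and 98.6 CPM in the parental libraries, and its mean change was -1.72 ± 0.24 (adjusted p = 2.45e-05). CDK13 changed by -1.78 ± 0.28 (adjusted p = 6.48e-05) and CCNK, which encodes cyclin K, by 0.08 ± 0.15 (adjusted p = 0.705). Their part in the other changes was not tested. A second list of 40 further recombination and Fanconi factors had 21 lower and 9 higher with SY200/V50 (median -0.48) against 24.2% of all genes lower and 24.0% higher, led by FIGNL1 (-1.70) and MCM9 (-1.82). End joining genes had 8 lower and 3 higher of 18, base excision and strand break repair genes 7 lower and 4 higher of 20, and nucleotide excision repair genes 3 lower and 6 higher of 18. Of 39 DNA replication and E2F genes, 11 were lower and 13 higher (median 0.15), with TK1 at 0.94, and of 28 G2 and mitosis genes 16 were lower and 1 higher (median -0.40).

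In the knockout experiment the targeted transcripts were lower where the labels name them. CDK7 stood at 13.7 to 17.1 CPM in the 4 CDK7 KO and CDK7/9 KO libraries against 49.0 and 66.5 CPM with empty vector, and CDK9 at 33.2 to 36.5 CPM in the 4 CDK9 KO and CDK7/9 KO libraries against 70.4 and 62.1 CPM. CDK1 stood at 81.6 and 84.1 CPM in CDK1 KO against 178 and 283 CPM with empty vector, but the parental library, which has no matching time and was not tested, had 84.1 CPM as well. Where the deletions lie is not stated, so these 3′ counts may lie outside them.

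Members passed with CDK9 KO and with CDK7/9 KO, and the pair of FANCI and FANCD2 did not pass. The median change of the 39 was no smaller elsewhere, at -0.19 with CDK1 KO and -0.14 with CDK7 KO. It was -0.04 with CDK9 KO and -0.13 with CDK7/9 KO. The 39 genes took 0.192% of reads in the empty vector 96 h library and 0.165% in that at 72 h. They took 0.153 to 0.168% in the knockouts. With CDK9 KO 4 members were lower (3.82% of all genes lower) and 4 higher (4.34%), and with CDK7/9 KO 8 were lower (5.62%) and 2 higher (5.72%). The knockouts share their empty vector libraries. RAD54B, RAD51AP1, EXO1 and NBN were lower in each, and RAD54L and MUS81 higher in each. CDK9 KO also raised EME1 (0.47 ± 0.11) and XRCC3 (0.49 ± 0.13), and CDK7/9 KO lowered USP1 (-0.60 ± 0.15), BLM (-0.59 ± 0.16), RAD51C (-0.45 ± 0.12) and UBE2T (-0.36 ± 0.09). All these rises became falls under mitochondrial scaling, between -0.31 and -0.40.

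RAD54B stood at 5.0 and 6.37 CPM with empty vector at 72 and 96 h, at 2.41 and 2.05 CPM in CDK9 KO, at 2.64 and 2.61 CPM in CDK7/9 KO, at 5.29 and 4.40 CPM in CDK7 KO, at 4.80 and 3.16 CPM in CDK1 KO and at 2.34 CPM in the parental library. It fell with CDK9 KO (log2 change -1.36 ± 0.25, adjusted p = 0.0142) and with CDK7/9 KO (log2 change -1.12 ± 0.24, adjusted p = 0.0188). RAD51AP1 stood at 33.1 and 50.7 CPM with empty vector, at 24.4 and 20.4 CPM in CDK9 KO, at 24.2 and 19.8 CPM in CDK7/9 KO, at 30.5 and 30.9 CPM in CDK7 KO, at 31.7 and 27.0 CPM in CDK1 KO and at 19.2 CPM in the parental library. The CDK9 KO and CDK7/9 KO libraries of both genes lay below both empty vector libraries and above or near the parental one. RAD51AP1 fell (log2 change -0.91 ± 0.19, adjusted p = 0.0222) and (log2 change -0.93 ± 0.19, adjusted p = 0.0165) in these knockouts.

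EXO1 stood at 55.5 and 71.4 CPM with empty vector, at 42.9 and 44.6 CPM in CDK9 KO, at 41.1 and 45.4 CPM in CDK7/9 KO, at 45.9 and 56.0 CPM in CDK7 KO, at 45.5 and 44.3 CPM in CDK1 KO and at 32.3 CPM in the parental library. Its change was -0.53 ± 0.12 (adjusted p = 0.025) with CDK9 KO and -0.54 ± 0.12 (adjusted p = 0.0187) with CDK7/9 KO. BRCA2 stood at 38.3 and 29.6 CPM with empty vector and 29.4 to 31.3 CPM in CDK9 KO and CDK7/9 KO, and BRCA1 at 51.2 and 58.8 CPM against 49.0 to 68.2 CPM. Neither BRCA1, BRCA2, FANCM, FANCF, FANCI nor FANCD2 passed in a knockout.

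With CDK1 KO and CDK7 KO no member passed in edgeR's quasi-likelihood test (0.352 and 0.0238% of all genes did). In that test 16 and 13 members had an unadjusted p under 0.05, and DESeq2 called 2 and 0 (2.45 and 1.19% of all genes). The knockout counts changed with single libraries, in a fit with 4 residual degrees of freedom. Without the empty vector 72 h library, which left 1 empty vector library, the count of members rose for each knockout. The share of all genes in that fit is not given here, so the rise is not a result about these genes. Without the empty vector 96 h library CDK1 KO gave 1. Without any of the 8 knockout libraries the 8 calls of CDK9 KO became 0 to 3 and the 10 of CDK7/9 KO 0 to 6.

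**Figure D5:**
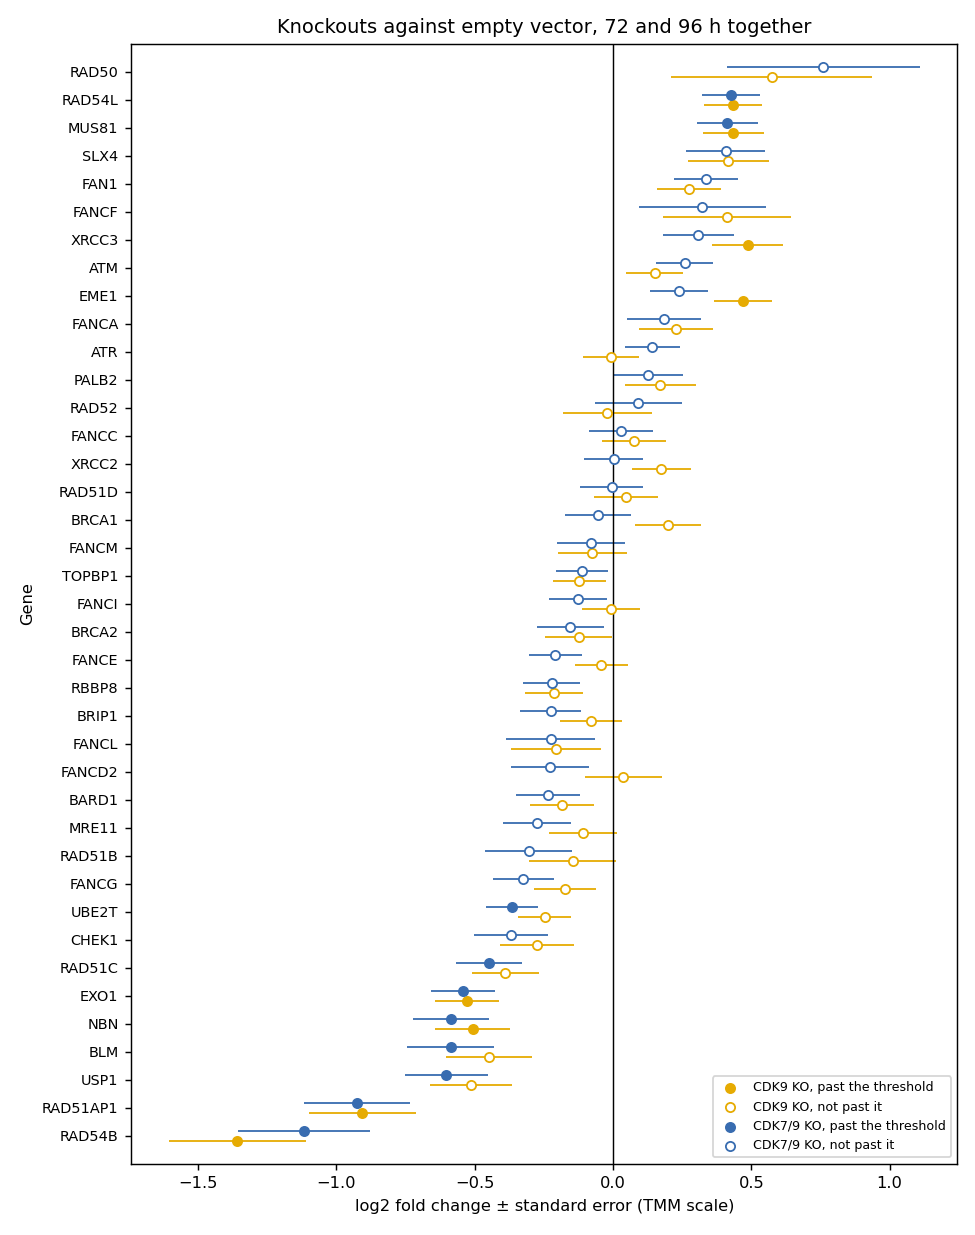
Change from empty vector in CDK9 KO (yellow) and CDK7/9 KO (blue) for the 39 genes, 72 and 96 h fitted together, as log2 fold change (horizontal axis) with its standard error, ordered by CDK7/9 KO. Filled points passed the threshold. RAD54B and RAD51AP1 lie lowest in both knockouts, and the filled points right of 0 turn negative under mitochondrial scaling.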

How the data were processed

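Polyadenylated RNA of 33 libraries was turned into 3′ tag libraries (QuantSeq FWD) and sequenced on an Illumina HiSeq2500, per the labels' protocols. The authors deposited raw read counts for each gene symbol as whole numbers. STAR 2.7.10a, FastQC and the build GRCh38 are named in the submitters' processing notes. The sources used here do not give the counting tool, the annotation, its strand setting or whether molecular identifiers were used. Counts per gene do not separate transcripts with different ends, and levels were not compared between genes.

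Counts were fitted with edgeR 4.0.16 (R 4.3.3) after filterByExpr (count at least 10, total at least 15), with TMM factors and the quasi-likelihood F test. P-values were adjusted by Benjamini-Hochberg over all genes with a threshold of 0.05. The filter left 18911 genes in the inhibitor and 16783 in the knockout experiment. The inhibitor model held the line and 10 conditions (11 residual degrees of freedom). Responses of the lines were compared in a model with line-specific treatment terms (8), and DMSO with parental in one that kept them apart (10). The knockout model held time and genotype over 10 libraries (4). DMSO and parental libraries formed the control, although the chi-square statistic between them within a line was 40.1 and 24.9 per degree of freedom, above sampling noise. Standard errors are those implied by the F statistic. The script was tested on simulated counts.

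Given by library are BRCA1, BRCA2, the 6 largest falls and 4 largest rises with SY200/V50 among members averaging 5 CPM or more, and the 3 members with the smallest adjusted p in a knockout. The 39 members, the gene lists, this rule and the alternatives were chosen with earlier results of these data known. Alternatives were DESeq2 1.42.0, its size factors in edgeR, no filter, mitochondrial scaling, DMSO alone as control, no block for line or time, and leaving out each library. Leaving out both SY200/V50 12 h libraries was added after seeing the data.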

Additional observations from a re-analysis of the deposited data

How the results depend on the processing

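Counts below are members past the threshold out of 39, and the causes of the shifts were not tested. With the cell line left out of the model (no replicate block; the lines are the only repeats), the counts were 0 for SY200, SY200 at 12 h, SY200 12 against 3 h, V50, V50 at 6 h, V50 at 12 h, V50 12 against 3 h, SY200/V50 12 against 3 h, SY200/V50 against V50 and the departure from additivity. They were 9 for SY200/V50 (2364 of all genes passed), 2 at 6 h (4.02% of all genes) and 8 at 12 h (13.2%). Against SY200 the count was 7 (10.9%), and for SY200/V50 against V50 at 12 h it was 5 (5.67%). Without the time block CDK9 KO gave 5 (6.42% of all genes). Labels give no replicate numbers, so no other pairing was possible.

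Scaled to mitochondrial mRNAs, the share of all genes called was 28% with SY200, 75.5% with V50, 83.7% with SY200/V50, and 68% and 66.4% with CDK9 KO and CDK7/9 KO. Members called were 18 for SY200, 5 at 12 h (6.05% of all genes), 0 for SY200 12 against 3 h (1.1%) and 38 for V50. They were 35 and 29 for V50 at 6 and 12 h (58.5 and 63.6%), and 39 for SY200/V50. At 6 and 12 h of SY200/V50 they were 38 and 39 (75.6 and 85.1%), and 38 for 12 against 3 h (56%). They were 37 against SY200 (72.2%), 29 against V50 at 12 h (40.4%), and 32 each for CDK9 KO and CDK7/9 KO. The changes that turned negative under this scaling were, with V50, FANCD2 (-0.44) and FANCI (-0.46), at 6 h RAD51B (-0.0421), FANCD2 (-0.39) and FANCI (-0.43), and at 12 h RAD54L (-0.28). With SY200/V50 they were BRCA1 (-1.39), RAD51B (-0.77), RAD51AP1 (-1.02), RBBP8 (-0.995), ATM (-1.01), FANCD2 (-0.77) and FANCI (-0.69). At 6 h of SY200/V50 they were ATM (-0.83), FANCD2 (-0.70) and FANCI (-0.72), and at 12 h RAD51AP1 (-1.46), RBBP8 (-1.34), FANCD2 (-1.27) and FANCI (-1.01), with FANCI -0.68 for 12 against 3 h. Against SY200 they were RAD51AP1 (-0.0774), MRE11 (-0.63), NBN (-0.67), RAD50 (-0.40), ATM (-0.43), FANCD2 (-0.41) and FANCI (-0.45). Against V50 they were ATM (-0.15) and FANCI (-0.23), and at 12 h ATM (-0.43) and FANCI (-0.39). ATR between lines became -0.10. With CDK9 KO they were XRCC3 (-0.31), RAD54L (-0.40), EME1 (-0.36) and MUS81 (-0.37), and with CDK7/9 KO RAD54L (-0.38) and MUS81 (-0.38).

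DESeq2 called 5 members with SY200 (5.21% of all genes), 5 at 12 h (5.63%) and 9 for SY200 12 against 3 h (7.31%). It called 7 with V50 at 12 h (19.4%), 11 for V50 12 against 3 h (17.3%), 7 off additivity (10.1%) and 2 with CDK1 KO (2.45%). With DMSO alone as control the counts were 0 for SY200 (0.149%) and SY200 at 12 h (0.106%), and 1 for SY200 12 against 3 h (2.32%). They were 7 and 2 for V50 at 6 and 12 h (21.2 and 10.4%), and 1 off additivity (0.675%). Without the filter they were 0 for SY200 (0.609%) and SY200 12 against 3 h (0.33%), and 7 for V50 at 6 h (9.11%). For SY200/V50 against V50 they were 11 (7.14%), for CDK1 KO 7 (5.12%) and for CDK7 KO 4 (2.93%). Leaving out 1 library gave 0 to 3 for SY200, 0 to 4 at 12 h, 0 to 3 for SY200 12 against 3 h, 5 to 10 for V50, 1 to 14 and 1 to 7 at 6 and 12 h, and 0 to 12 for V50 12 against 3 h. It gave 17 to 23 for SY200/V50, 8 to 16 and 15 to 22 at 6 and 12 h, 3 to 14 for 12 against 3 h, 9 to 17 against V50, 11 to 19 against V50 at 12 h and 1 to 9 off additivity. It gave 13 to 20 between line controls. For each knockout the count rose without the empty vector 72 h library, a fit whose share of all genes is not given here. For CDK9 KO and CDK7/9 KO it fell without single knockout libraries. Without both SY200/V50 12 h libraries, added after seeing the data, SY200/V50 gave 16 (35.7% of all genes). DESeq2's size factors within edgeR moved no count by over 1.5 times. Depth limits FANCF most, with 3 reads in 1 library. Genes of low count have no interval here beyond the standard error, which reflects 2 lines.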
